A study of Mus musculus with 32 samples.

Results

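Immediate early genes are transcribed within minutes of a stimulus because the factors that switch them on, among them CREB and the serum response factor with its ETS partners, are already present in the resting cell. Most of their products are short-lived transcription factors, and the others end the signal again. In brain tissue they are used as marks of recent neuronal firing, and in vessels they respond to stretch, growth factors and tissue handling. The 10 genes described here are Fos, Fosb, Jun and Junb, which encode subunits of the AP-1 transcription factor; Egr1, a zinc finger factor; Nr4a1, an orphan nuclear receptor; Atf3, a stress-induced factor of the ATF/CREB family; Ier2, an early-response nuclear protein; Dusp1, a phosphatase that switches off MAP kinases; and Npas4, an activity-dependent factor best known from neurons. They were chosen by symbol, and each matched 1 Ensembl identifier among the 55357 genes of the count table. All 10 had enough counts to be tested in every comparison.

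The libraries were made from brain arteries dissected from 32 mice, 1 library per mouse. Arteries of Notch3-/- mice aged 3 months, which carry no functional Notch3 allele, were compared with Notch3+/+ arteries of the same age. Arteries of TgNotch3R169C mice aged 12 months, a model of the small vessel disease CADASIL, were compared with WT arteries of the same age. Each of the 4 groups held 8 mice. TgNotch3R169C mice carry a large genomic transgene of rat Notch3 with the Arg169Cys mutation in addition to both mouse Notch3 alleles, and the transgene of this single line sits on the X chromosome. All lines were on the C57BL/6 background, and no mouse received a treatment. The mice were anesthetized with ketamine and xylazine before decapitation. The removed brains were left in cold buffer on ice for a fixed time before the arteries were dissected, and the arteries were then frozen. Handling time per mouse was not analysed here.

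Library totals ran from 20289487 to 54481934 counts. Notch3 itself checked the labels: it was at 13.6 to 18.8 CPM (counts scaled to library size) in Notch3-/- arteries against 66.0 to 97.4 CPM in Notch3+/+ arteries, and at 107.6 to 222.5 CPM in TgNotch3R169C arteries against 60.2 to 84.9 CPM in WT arteries. The 8 smooth muscle markers summed to 919.8 to 3680 CPM and the 8 endothelial markers to 1940 to 3118 CPM. Some libraries also held neighbouring tissue. In 7 libraries the 6 choroid plexus markers summed to 8781 CPM or more (4 WT, 2 TgNotch3R169C and 1 Notch3-/-), against at most 645.5 CPM in the other libraries. In replicate 5 of the Notch3+/+ group the 6 pituitary markers summed to 8859 CPM, against at most 768.1 CPM elsewhere. These are bulk libraries, so fewer cells of a type and less RNA per cell cannot be told apart.

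The promoters show one feature that most of the genes shared and that the choice by symbol did not use. RefSeq promoter windows on build GRCm38.p6 were found for 8 of the 10 genes, not for Egr1 and Ier2, and only the 250 bases before the annotated start were searched, on both strands. The count table was made on mm39, so these coordinates belong to the RefSeq windows and not to the counts. The core of the cAMP response element, TGACG or CGTCA on the other strand, which CREB and ATF factors bind, occurred in 7 of the 8 windows (Fos, Fosb, Junb, Nr4a1, Atf3, Dusp1 and Npas4) and in 17.8% of all 32851 promoter windows. The full palindrome TGACGTCA, which contains the core on both strands, occurred in the Dusp1 window and in 1.55% of all windows. The windows of 5 genes are printed, 4 with at least 2 cores and that of Jun, the 1 window without any. Capitals mark the cores and, in Dusp1, also the full palindrome.
Fos, chr12:85473640-85473889, plus strand: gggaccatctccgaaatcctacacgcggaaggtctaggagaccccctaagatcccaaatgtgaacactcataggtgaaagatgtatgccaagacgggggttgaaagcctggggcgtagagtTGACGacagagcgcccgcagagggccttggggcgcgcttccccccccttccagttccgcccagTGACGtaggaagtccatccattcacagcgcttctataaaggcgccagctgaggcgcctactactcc
Dusp1, chr17:26508473-26508722, minus strand: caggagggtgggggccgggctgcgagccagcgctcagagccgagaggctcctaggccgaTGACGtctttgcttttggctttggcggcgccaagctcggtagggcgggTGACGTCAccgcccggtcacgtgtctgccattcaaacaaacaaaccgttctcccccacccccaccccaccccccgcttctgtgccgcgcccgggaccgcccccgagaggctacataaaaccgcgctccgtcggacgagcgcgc
Nr4a1, chr15:101266596-101266845, plus strand: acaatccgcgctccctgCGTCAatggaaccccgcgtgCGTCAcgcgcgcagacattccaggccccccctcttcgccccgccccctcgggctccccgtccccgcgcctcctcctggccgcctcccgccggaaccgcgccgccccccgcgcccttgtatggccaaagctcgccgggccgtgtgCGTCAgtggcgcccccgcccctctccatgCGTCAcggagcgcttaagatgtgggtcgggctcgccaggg
Npas4, chr19:4989972-4990221, minus strand: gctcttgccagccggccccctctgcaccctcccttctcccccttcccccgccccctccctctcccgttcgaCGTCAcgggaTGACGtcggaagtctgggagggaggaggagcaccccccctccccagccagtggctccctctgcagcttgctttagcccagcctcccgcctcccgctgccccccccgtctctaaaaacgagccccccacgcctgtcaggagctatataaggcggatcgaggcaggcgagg
Jun, chr4:95052223-95052472, minus strand: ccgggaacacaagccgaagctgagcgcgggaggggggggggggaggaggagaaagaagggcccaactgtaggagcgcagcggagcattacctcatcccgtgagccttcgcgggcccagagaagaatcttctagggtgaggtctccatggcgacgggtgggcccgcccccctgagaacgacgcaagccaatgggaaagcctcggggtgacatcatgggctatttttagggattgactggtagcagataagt
Counted from the start of transcription, the cores of Fos begin at positions -129 and -66, those of Npas4 at -179 and -169, those of Dusp1 at -191, -143 and -140, and those of Nr4a1 at 4 positions from -233 to -40. The EGR site GCGNGGGCG occurred in the windows of Fosb and Nr4a1 and in 4.7% of all windows. The ETS core CCGGAA occurred in that of Nr4a1 and in 12.0% of all. Neither the CArG box, which the serum response factor binds, nor the AP-1 site TGANTCA was found in any of the 8 windows, against 1.47% and 6.75% of all. A match is a stretch of letters and not a measured binding site, and no match says only that these letters are not in this window.

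All 10 transcripts were detected in every artery library, the lowest count being that of Fosb at 33 reads. Per kilobase of exon, the median in Notch3+/+ arteries was highest for Jun at 27.3 CPM per kb, followed by Dusp1 at 23.5, Junb at 18.4, Ier2 at 17.1, Egr1 at 13.4, Nr4a1 at 12.3 and Fos at 5.93 CPM per kb. Atf3 at 2.25, Npas4 at 1.39 and Fosb at 0.579 CPM per kb were the least abundant. Each pair of neighbours in this order overlapped between the 8 mice. All values below are CPM without division by length and compare mice for 1 gene at a time.

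**Figure D1:**
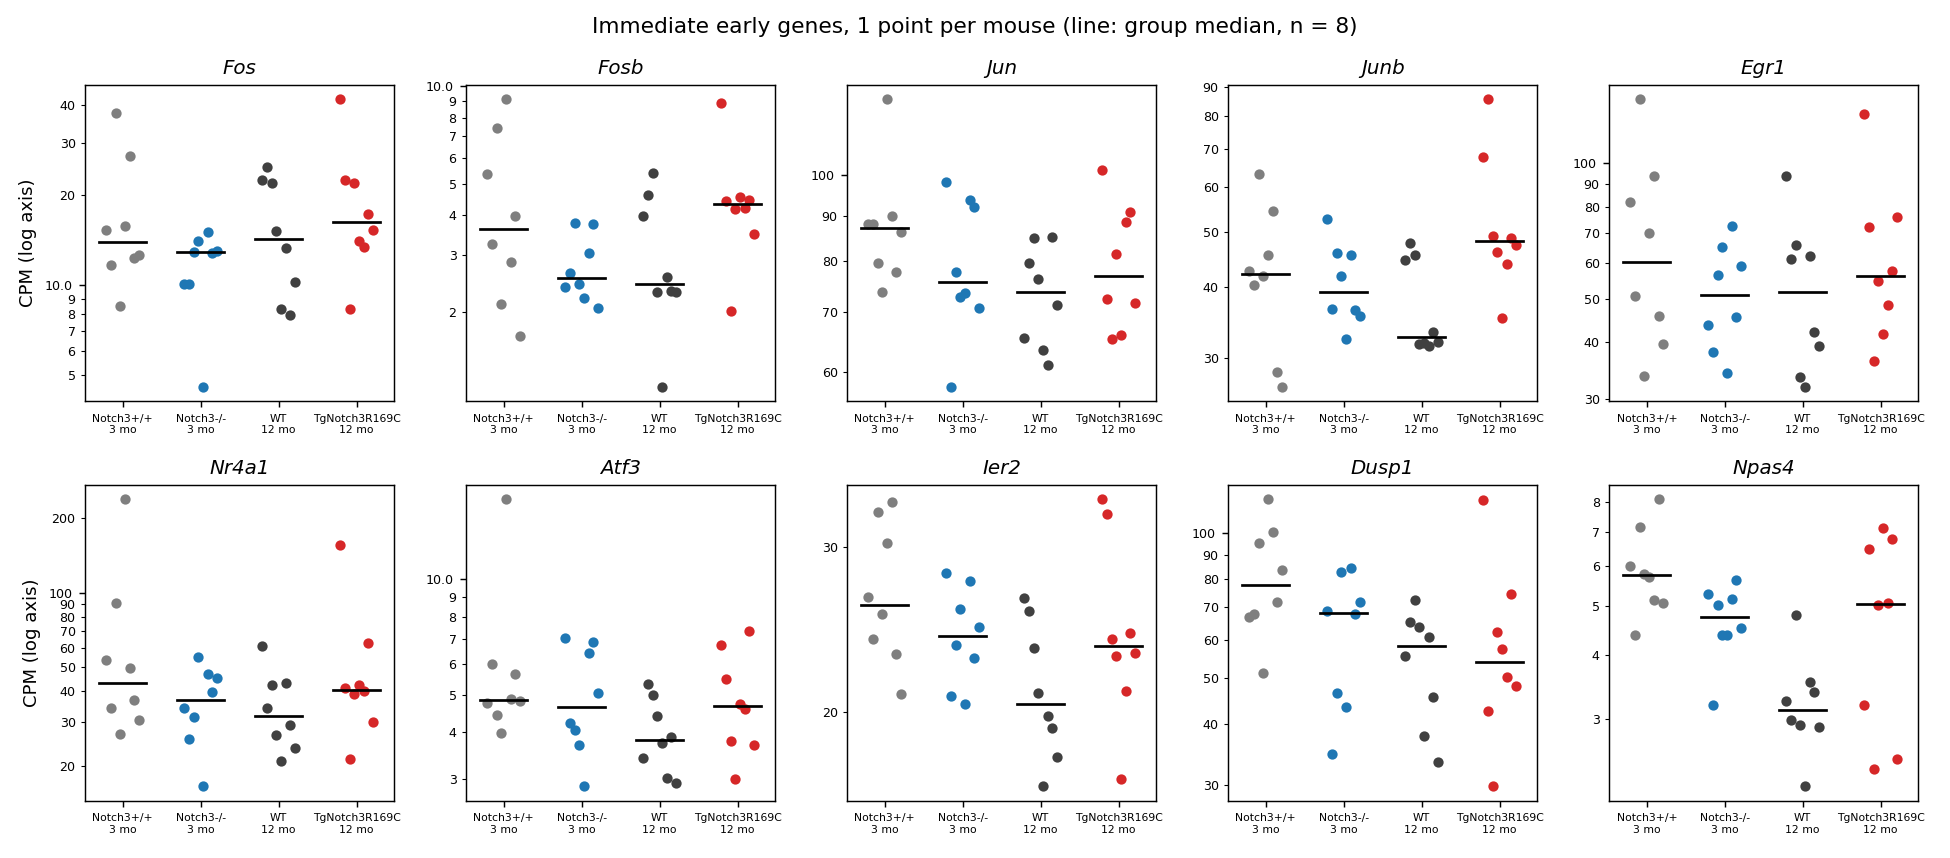
CPM (log axis) of each of the 10 genes in each mouse, 1 point per mouse and a line at the group median, for the 4 groups of 8. In each gene the groups overlap, and 1 Notch3+/+ mouse stands out in Nr4a1 (238.8 CPM) and Atf3 (16.2 CPM).

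Fos, the partner of the Jun proteins in AP-1, ranged from 8.51 to 37.8 CPM in Notch3+/+ arteries with a median of 13.9 CPM. In Notch3-/- arteries it ranged from 4.57 to 15 CPM with a median of 12.9 CPM. In WT arteries the range was 7.97 to 24.9 CPM and the median 14.2 CPM, and in TgNotch3R169C arteries 8.28 to 41.9 CPM and 16.3 CPM. The 4 medians were thus close together while single mice of one group differed up to 5.06-fold. Egr1 behaved in the same manner, with ranges of 33.7 to 138.6 CPM in Notch3+/+, 34.1 to 72.5 CPM in Notch3-/-, 31.9 to 93.7 CPM in WT and 36.4 to 128.8 CPM in TgNotch3R169C arteries. Its medians were 60.2, 50.9, 51.8 and 56.2 CPM in that order.

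Nr4a1 had the widest range of the 10 genes. In Notch3+/+ arteries 7 of 8 mice lay between 26.7 and 91.2 CPM and replicate 5 at 238.8 CPM, with a group median of 43.3 CPM. Notch3-/- arteries ranged from 16.5 to 54.9 CPM (median 37.0), WT arteries from 20.8 to 61.2 CPM (median 31.7) and TgNotch3R169C arteries from 21.3 to 156.3 CPM (median 40.6). The highest value in each of the Notch3+/+ and TgNotch3R169C groups was a single mouse far above the next. Atf3 had the same Notch3+/+ mouse at 16.2 CPM, whereas the 7 others lay between 3.97 and 6.02 CPM. In the other groups Atf3 ranged from 2.88 to 7.01 CPM in Notch3-/-, 2.94 to 5.33 CPM in WT and 3.02 to 7.32 CPM in TgNotch3R169C arteries.

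The remaining AP-1 subunits and Ier2 varied less, apart from Fosb. Fosb ranged from 1.69 to 9.13 CPM in Notch3+/+, 2.06 to 3.79 CPM in Notch3-/-, 1.18 to 5.39 CPM in WT and 2.01 to 8.87 CPM in TgNotch3R169C arteries. Jun stayed between 57.8 and 121.7 CPM over all 32 mice, Junb between 26.8 and 85.5 CPM and Ier2 between 16.7 and 33.8 CPM. Dusp1 ranged from 29.8 to 117.4 CPM over all mice, with group medians of 77.8 CPM in Notch3+/+, 68.2 CPM in Notch3-/-, 58.0 CPM in WT and 53.8 CPM in TgNotch3R169C arteries. Over the 10 genes, the Notch3+/+ group had the highest median for 7 genes and the TgNotch3R169C group for 3 (Fos, Fosb and Junb), and the WT group had the lowest median for 7.

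The spread between mice of 1 group was large for most of these genes. The pooled within-group SD on the log2 CPM scale was 0.772 for Nr4a1, 0.647 for Fos, 0.635 for Fosb and 0.560 for Egr1, which placed these 4 at the 94.3rd, 90.8th, 90.3rd and 86.7th percentile of all tested genes, whose median SD was 0.2. Atf3 (0.475) and Dusp1 (0.467) lay near the 80th percentile. Jun (0.225) and Ier2 (0.251) varied about as much as the median gene, at the 54.3rd and 58.1st percentile. Differences between groups of 8 mice are measured against this spread. Many of the genes also varied together from mouse to mouse, as described below. Counts of members in the comparisons are therefore not counts of separate results.

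The comparison of Notch3-/- with Notch3+/+ arteries addressed which transcripts depend on Notch3. All 10 genes had a lower fitted level in Notch3-/- arteries, and none passed the test (edgeR quasi-likelihood, Benjamini-Hochberg adjusted p below 0.05 over 17714 genes). In this comparison 0.649% of all tested genes were called. The median log2 fold change of the 10 genes was -0.37, beside -0.0011 over all tested genes. Before adjustment 4 of the 10 had p below 0.05, all lower, as had 3.96% of all tested genes in that direction. These were Npas4 (log2 fold change -0.34 ± 0.13 SE, edgeR adjusted p = 0.482), Fosb (-0.69 ± 0.30, adjusted p = 0.591), Nr4a1 (-0.94 ± 0.42, adjusted p = 0.608) and Fos (-0.62 ± 0.29, adjusted p = 0.643). Npas4 was below the Notch3+/+ median in 8 of 8 Notch3-/- mice, with 3.19 to 5.61 CPM against 4.38 to 8.12 CPM. In the other 6 genes the log2 fold change ran from -0.43 in Egr1 to -0.08 in Junb.

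Single Notch3+/+ mice weighed on these differences. Without replicate 5, the pituitary-rich library, the log2 fold change of Nr4a1 moved from -0.94 to -0.32, that of Fosb from -0.69 to -0.45, that of Jun from -0.15 to -0.07 and that of Atf3 from -0.34 to 0.03. Without replicate 3, in which the 10 neuron markers summed to 1771 CPM against 304.6 to 644.9 CPM in the other Notch3+/+ libraries, Fos moved from -0.62 to -0.36, Egr1 from -0.43 to -0.20 and Junb from -0.08 to 0.03. What part the pituitary and neuronal RNA of these 2 libraries had in the differences was not tested. Npas4 stayed between -0.39 and -0.26 whichever mouse was left out. The smooth muscle list was also lower in Notch3-/- arteries, with a summed level of 1425 to 2183 CPM against 2082 to 3680 CPM, and its part in these differences was not tested beyond a fit with the list as a covariate, in which no member passed either. In that fit Npas4 was at -0.17 and Fosb at -1.24.

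In the comparison of TgNotch3R169C with WT arteries, which addressed the mutant transgene, the 10 genes were higher on average in TgNotch3R169C arteries and again none passed the test. Here 0.113% of the 17731 tested genes were called. The median log2 fold change of the 10 genes was 0.31, beside -0.0074 over all tested genes. Before adjustment 2 genes had p below 0.05, both higher, as had 4% of all tested genes in that direction. Junb, an AP-1 subunit that often acts against Jun, ranged from 35.4 to 85.5 CPM in TgNotch3R169C arteries with a median of 48.1 CPM. In WT arteries it ranged from 31.6 to 47.9 CPM with a median of 32.7 CPM. All 8 TgNotch3R169C mice were above the WT median and 4 were above every WT mouse, and the log2 fold change was 0.50 ± 0.16 (SE; 95% interval 0.17 to 0.84; edgeR adjusted p = 0.531).

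Npas4 was the other gene, with 2.39 to 7.13 CPM in TgNotch3R169C arteries (median 5.05) and 2.21 to 4.79 CPM in WT arteries (median 3.11). In TgNotch3R169C arteries 5 mice lay above every WT mouse and the other 3 lay within the WT range. Its log2 fold change was 0.57 ± 0.23 (SE, edgeR adjusted p = 0.665). The summed neuron markers had a higher median as well, with ranges that overlapped. All 10 passed the filter on low counts, and they summed to 449.1 to 1351 CPM in TgNotch3R169C arteries (median 786.4) and 289.5 to 1082 CPM in WT arteries (median 537.8). With the mean of that list as a covariate the log2 fold change of Npas4 was 0.18. What part neuronal RNA had in the difference was not tested.

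Replicate 1 of the TgNotch3R169C group was the highest or second highest mouse of its group for all members but Npas4. Without it the log2 fold change of Nr4a1 moved from 0.62 to 0.17, that of Fos from 0.31 to 0.05, that of Egr1 from 0.26 to 0.04 and that of Dusp1 from 0.14 to -0.06. That of Fosb moved from 0.54 to 0.34, that of Jun from 0.12 to 0.06 and that of Ier2 from 0.22 to 0.15, and the median of the 10 genes was then 0.16. Junb stayed between 0.37 and 0.57 whichever mouse was left out, and Atf3 between 0.21 and 0.39.

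**Figure D2:**
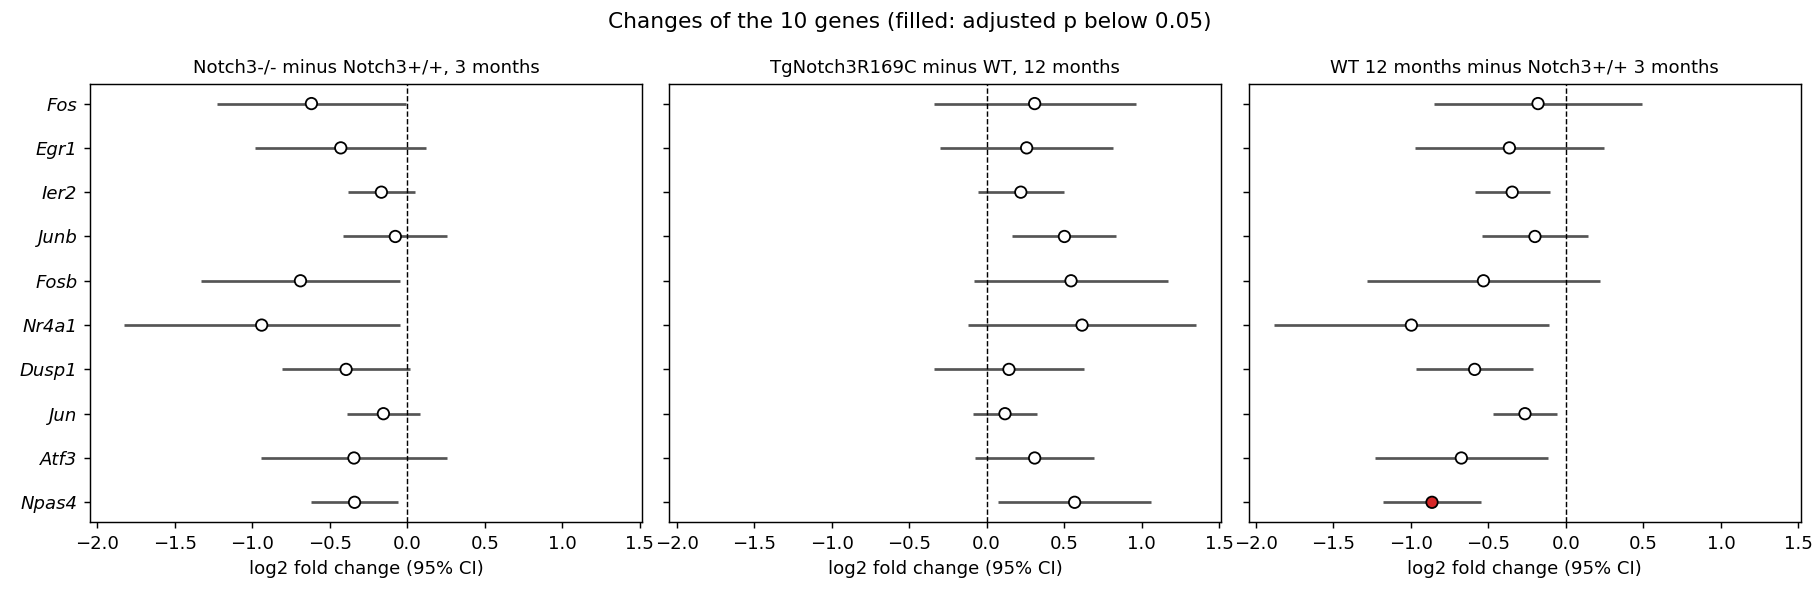
Fitted log2 fold change of each gene (point) with its 95% interval (line) in the 3 comparisons of 8 against 8 mice, a filled point marking an adjusted p below 0.05. The only filled point is Npas4 in WT arteries of 12 months against Notch3+/+ arteries of 3 months, at -0.86.

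The control arteries of both experiments were compared with each other as well. These groups differ in age and in mouse line together, which cannot be told apart, and each also serves as control in 1 of the comparisons above, so that a high or low control mouse enters both. Npas4 was lower in WT arteries of 12 months than in Notch3+/+ arteries of 3 months and was the only one of the 10 genes to pass, where 7.92% of the 17643 tested genes were called in either direction and 4.05% were called lower. Notch3+/+ arteries held 4.38 to 8.12 CPM (median 5.74) and WT arteries 2.21 to 4.79 CPM (median 3.11). Of the 8 WT mice 7 lay below every Notch3+/+ mouse, and the groups overlapped through 1 WT mouse. The log2 fold change was -0.86 ± 0.15 (SE; 95% interval -1.18 to -0.54; edgeR adjusted p = 0.00311), and it passed without any one of the 16 mice, at -0.97 to -0.78.

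In these groups the neuron markers summed to a median of 537.8 CPM in WT arteries and 412.2 CPM in Notch3+/+ arteries. With that list as a covariate the log2 fold change of Npas4 was -0.95 (edgeR adjusted p = 6.03e-04). Markers of other tissue and of smooth muscle differed in level between the groups. Over the 32 mice with group means removed, Npas4 was at r = -0.151 with the choroid plexus list and -0.0866 with the smooth muscle list. Neither relation passed (permutation adjusted p = 0.776 and 0.937). By rho they were at -0.280 and 0.00403. Without the 2 mice farthest from the median of the list, r was -0.355 and -0.14. Choroid plexus markers were at 8781 CPM or more in 4 WT libraries and in 0 Notch3+/+ libraries. Without those 4 mice the log2 fold change of Npas4 was -0.72 with an adjusted p of 0.0621 by edgeR. That fit keeps only 4 of 8 WT mice. Npas4 did not pass with the choroid plexus list as a covariate either. Smooth muscle markers summed to 1146 to 1755 CPM in WT and 2082 to 3680 CPM in Notch3+/+ arteries, groups that did not overlap. With that list as a covariate the log2 fold change of Npas4 was -0.76 (edgeR adjusted p = 0.483). Because the groups did not overlap, that fit can hardly tell list and group apart. Oligodendrocyte markers summed to 1152 to 1792 CPM in WT and 472 to 1540 CPM in Notch3+/+ arteries, and fibroblast markers to 3146 to 3684 CPM against 3549 to 4747 CPM. What part any of these tissues had in the difference was not tested.

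The other 9 genes were lower too, with log2 fold changes from -0.997 in Nr4a1 to -0.18 in Fos, and the median of all 10 was -0.45 beside 0.0026 over all tested genes. That median was -0.89 with the smooth muscle list as a covariate, where Nr4a1 was at -1.96, and -0.21 without the choroid plexus-rich and pituitary-rich libraries, where Nr4a1 was at -0.23. Before adjustment 6 of the 10 had p below 0.05, all lower, as had 11.5% of all tested genes in that direction. Dusp1 came closest to passing after Npas4 (-0.59 ± 0.18 SE, edgeR adjusted p = 0.0528), then Ier2 (-0.35 ± 0.12, adjusted p = 0.0721). Dusp1 was below the Notch3+/+ median in all 8 WT mice. Replicate 5 of the Notch3+/+ group weighed on this comparison as well: without it Nr4a1 moved from -0.997 to -0.39, Atf3 from -0.67 to -0.31 and Fosb from -0.53 to -0.30. Without Notch3+/+ replicate 3, Fos moved from -0.18 to 0.08, Egr1 from -0.36 to -0.14 and Junb from -0.20 to -0.10.

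Whether the 2 mutants differed in their change against their own controls was tested with the difference of the 2 log2 fold changes in a fit of all 4 groups. The 2 mutants also differ in age and in mouse line, which cannot be told apart from the kind of mutation. All 10 differences were positive, as the signs above fix, and none passed, where 0.35% of 18555 genes were called. Before adjustment 6 of the 10 had p below 0.05, as had 4.84% of all tested genes in that direction. The largest of these were Nr4a1 (1.56 ± 0.57 SE), Fosb (1.24 ± 0.43), Fos (0.93 ± 0.44) and Npas4 (0.91 ± 0.27), whose edgeR adjusted p values were 0.389, 0.354, 0.559 and 0.190. Without Notch3+/+ replicate 5 the difference of Nr4a1 was 0.94 and that of Atf3 moved from 0.66 to 0.29. Without TgNotch3R169C replicate 1 that of Dusp1 moved from 0.54 to 0.34.

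Within groups, many of the genes were correlated from mouse to mouse. After each group mean was removed, all 45 pairs were positively correlated over the 32 mice, with Pearson's r from 0.0572 to 0.901 and a median of 0.526 (jackknife SE 0.0911). Each pair was tested by 100000 permutations of mice within groups, two-sided, and adjusted p values are over the 45 pairs. By Pearson's r 29 of the 45 pairs passed (adjusted p below 0.05) and by Spearman's rho 28, but of the 9 pairs with Npas4 only 1 passed by either measure, that with Fosb. Junb and Ier2 were the closest pair (r = 0.901, Spearman's rho = 0.875, permutation p = 1e-05 for both, the smallest possible; adjusted p = 0.00015 and 9e-05, as in the next 2 pairs). Fos and Egr1 followed (r = 0.853, rho = 0.829, permutation p = 1e-05 for both), then Nr4a1 and Dusp1 (r = 0.780, rho = 0.780, permutation p = 1e-05 for both). Without the 2 mice farthest from the median of the first gene, r was 0.891, 0.791 and 0.739 for these pairs.

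**Figure D3:**
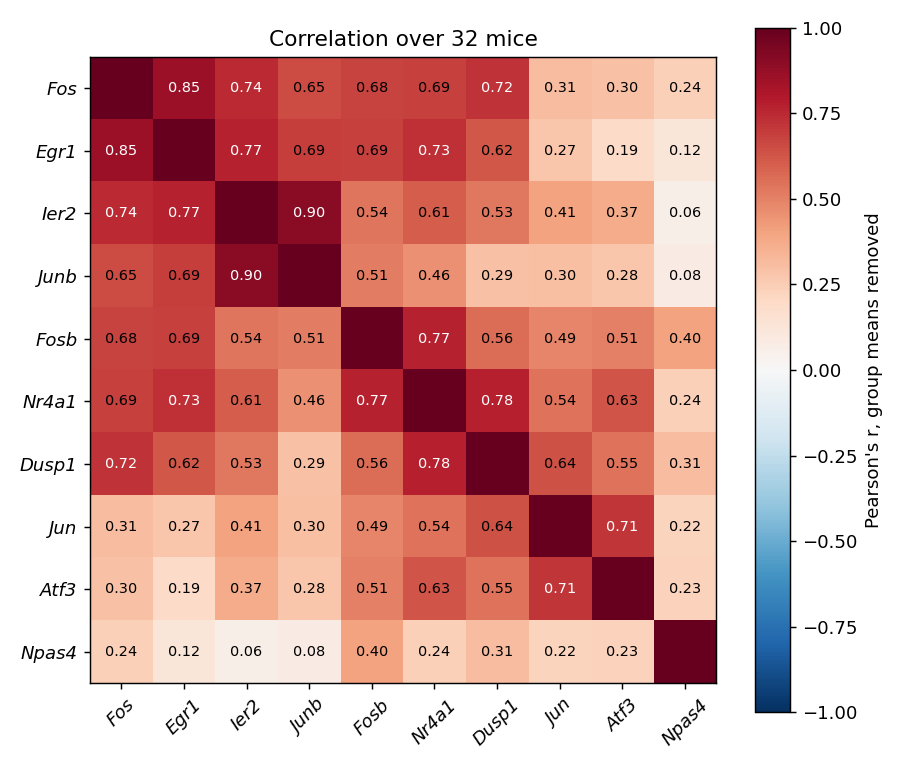
Pearson's r of log2 CPM between each pair of the 10 genes over 32 mice with group means removed, on a colour scale from -1 to 1. Fos, Egr1, Ier2 and Junb form a block with r of 0.65 or more, Jun and Atf3 pair with each other at 0.71, and the Npas4 row is palest, with no r above 0.40.

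The genes were not equally close to each other. Fos, the reference gene of the class, was correlated with Egr1, Ier2, Dusp1, Nr4a1, Fosb and Junb at r of 0.652 to 0.853, and these 6 genes were at ranks 1, 4, 5, 7, 8 and 13 among 18554 genes ordered by their correlation with Fos. Jun, Atf3 and Npas4 were at ranks 968, 1111 and 2118 in that order. Jun and Atf3 were each closest to the other (r = 0.711, rho = 0.592, permutation p = 6e-05 and 0.00086, adjusted p = 0.0003 and 0.00236). Their r was 0.668 without the 2 mice farthest from the median of Jun. Both genes also passed by r and rho with Dusp1, Nr4a1 and Fosb, at r of 0.491 to 0.639. Without the 2 mice farthest from the median of 1 gene of the pair, these r were 0.368 to 0.558. Within WT arteries alone, Nr4a1 was at r = 0.0207 with Atf3 and -0.0989 with Jun. With Ier2, Jun passed by r alone (0.405). The first principal component of the 10 genes held 56.6% of their variance with all loadings positive. The second held 15.6% and set Atf3, Jun and Npas4 against Junb, Egr1 and Ier2.

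As background for these values, each gene was also correlated with all tested genes. The median r of Fos with the other 9 members was 0.680, a value that 0.0431% of all tested genes reached with Fos. For Egr1 that share was 0.0485%, for Nr4a1 0.151%, for Ier2 0.437%, for Fosb 0.528% and for Dusp1 0.722%. For Junb it was 2.54%, for Jun 5.26%, for Atf3 7.50% and for Npas4, whose median r was 0.227, 19.7%.

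The correlation was present in each group. The median r of the 45 pairs was 0.517 in Notch3+/+, 0.525 in Notch3-/-, 0.627 in WT and 0.558 in TgNotch3R169C arteries, each over 8 mice, and 40, 43, 43 and 42 of the 45 pairs were positive. With the choroid plexus-rich libraries and the pituitary-rich library left out the median r was 0.510. Fos and Fosb were correlated at 0.462 over the 16 mice aged 3 months and at 0.885 over the 16 mice aged 12 months, a difference that was not tested. Fos and Atf3 were at r = 0.296 over all mice and at -0.0357 within Notch3+/+ arteries. In that group replicate 3 had the highest Fos, 1.26 log2 units above the group mean, with Atf3 at -0.36. Replicate 5 had the highest Atf3 and an average Fos. What part either mouse had in the value within the group was not tested.

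**Figure D4:**
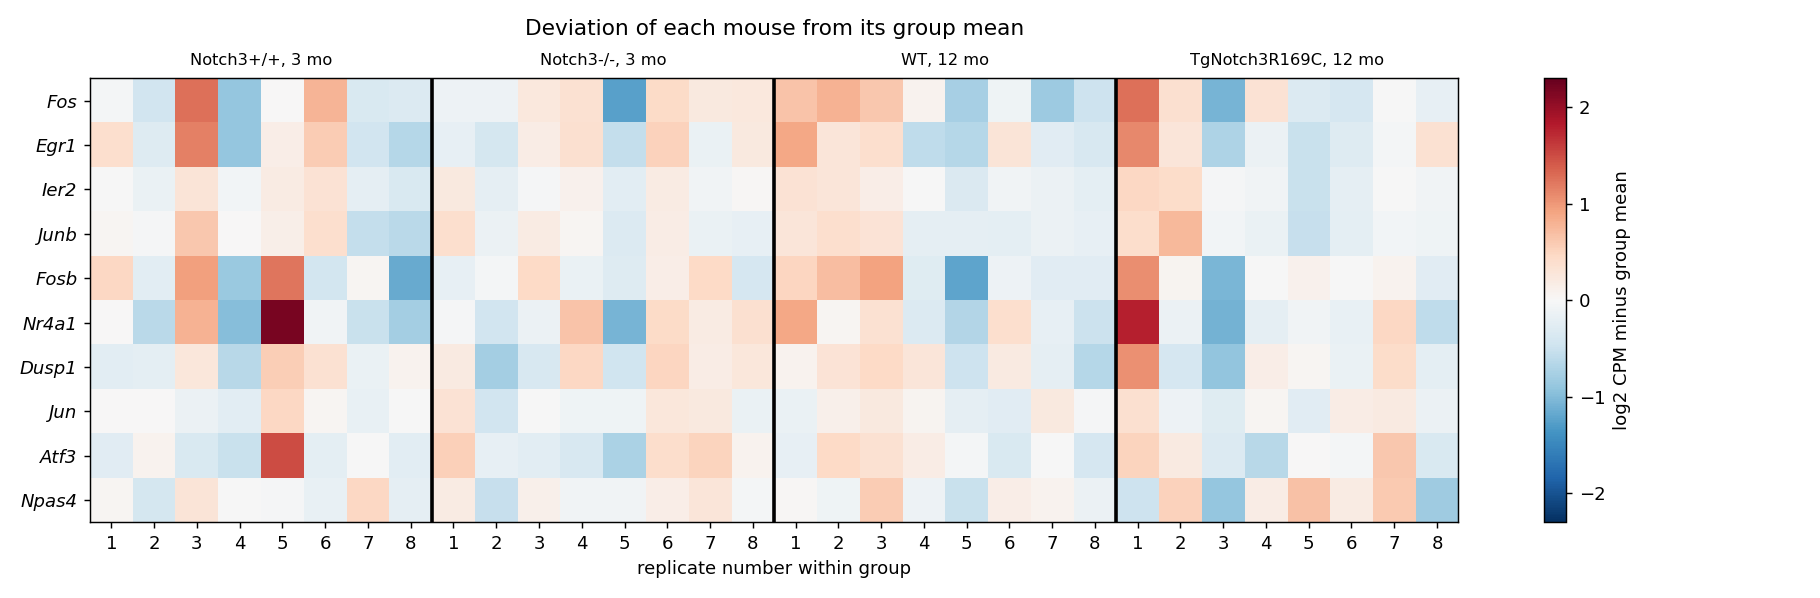
Deviation of each mouse from its group mean in log2 CPM (colour, red above and blue below), genes in rows and the 8 replicates of each group in columns. TgNotch3R169C replicate 1 is red in 9 of 10 rows and TgNotch3R169C replicate 3 is blue in all 10, while Notch3+/+ replicate 5 is strong in Nr4a1, Atf3 and Fosb and near 0 in Fos.

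By mouse, TgNotch3R169C replicate 1 lay 0.756 log2 units above its group mean averaged over the 10 genes, with 9 of 10 genes above and Nr4a1 at 1.79. Notch3+/+ replicate 5 averaged 0.642, with Nr4a1 at 2.18 and Fos at 0.0039. Notch3+/+ replicate 3 averaged 0.512 and its highest gene was Fos at 1.26, whereas Atf3 was at -0.36. All 10 genes were above the group mean in 2 mice, WT replicate 3 (average 0.438) and Notch3-/- replicate 6 (0.326). In 5 mice 0 of 10 genes were above it, with averages from -0.636 in TgNotch3R169C replicate 3 to -0.324 in WT replicate 8. Notch3+/+ replicate 4 was as low (-0.504) with 1 gene, Junb, just above its group mean. The median r of the 45 pairs stayed between 0.471 and 0.555 whichever mouse was left out.

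Npas4 was correlated with the neuron markers. Over 32 mice with group means removed it was correlated with the mean of the 10 neuron markers at r = 0.638 and rho = 0.687 (permutation p = 5e-05 and 9e-05, adjusted p = 0.0070 and 0.0126 over the 140 relations of members with marker lists, depth and mitochondrial share). The value was 0.438 in mice aged 3 months and 0.819 in mice aged 12 months, and 0.639 without the 2 mice farthest from the median of the neuron markers. For Fos, Egr1 and the other members no relation with the neuron markers passed. Of the 140 relations 6 passed by r or rho, this one and 5 with the list of regulators described further on. None passed with depth or with mitochondrial transcripts, which were 3.11% to 4.25% of counts per library. Atf3 was just at the threshold by rho with the mitochondrial share (-0.554) and with the heat shock list (0.506), both at a permutation adjusted p of 0.05. By r these 2 relations were at -0.489 and 0.410 (permutation adjusted p = 0.145 and 0.0961).

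**Figure D5:**
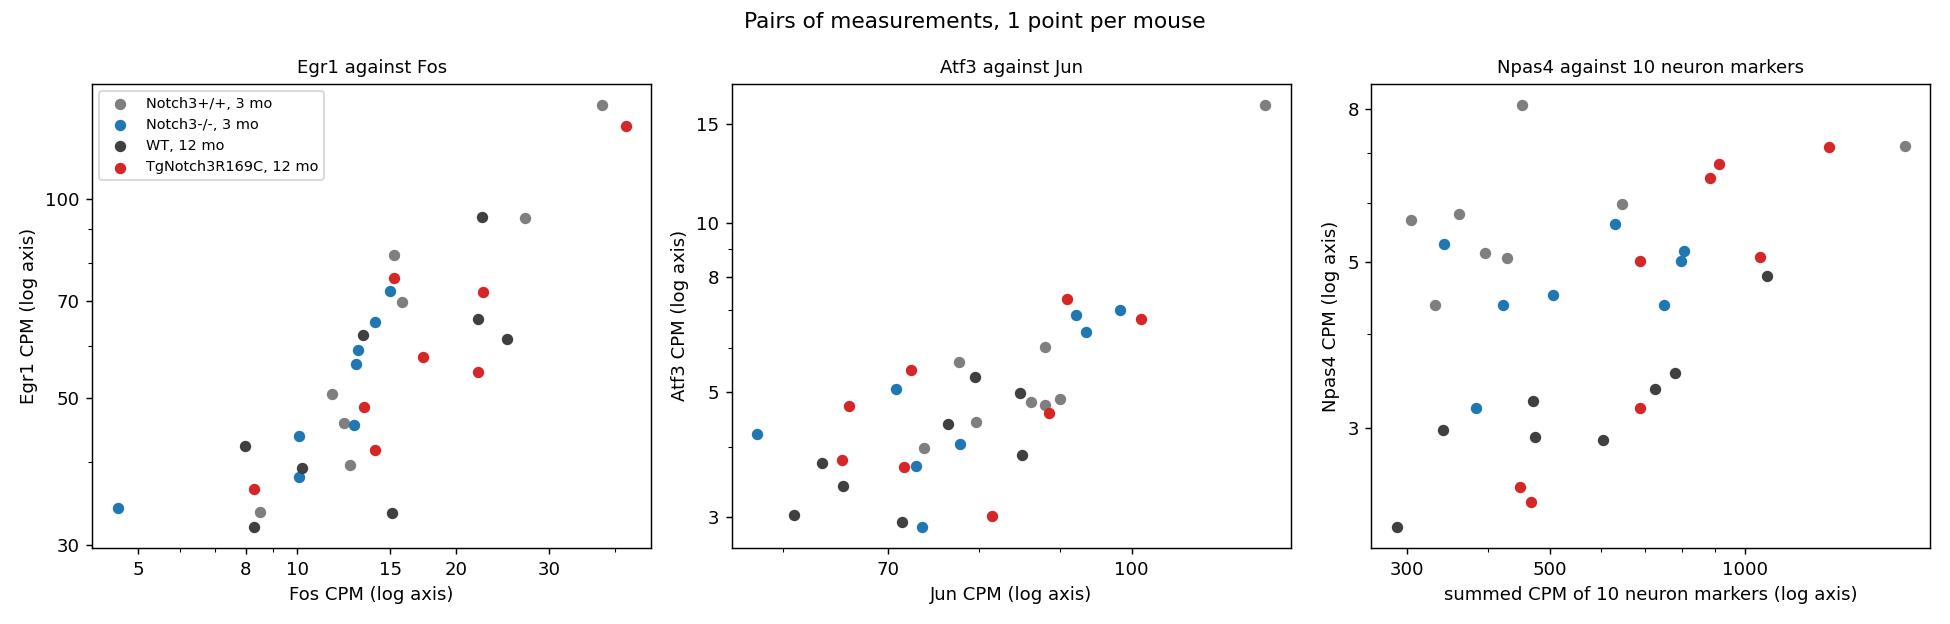
One point per mouse on log axes, coloured by group: Egr1 against Fos, Atf3 against Jun and Npas4 against the summed CPM of 10 neuron markers. Egr1 rises with Fos in all groups, the mouse with 16.2 CPM of Atf3 also has the highest Jun, and 7 of 8 WT mice lie below 4.38 CPM of Npas4, the lowest Notch3+/+ value, at neuron sums of 289.5 to 779.8 CPM.

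A wider list of 53 other early-response genes was read next to the 10, and 51 of them were tested. None was called in Notch3-/- against Notch3+/+ arteries (median log2 fold change -0.07). Before adjustment 4 were lower there (7.84%, beside 3.96% of all tested genes) and 2 higher (3.92%, beside 3.73%). Again none was called in TgNotch3R169C against WT arteries (median 0.11), where 8 were higher before adjustment (15.7%, beside 4% of all tested genes) and 0 lower. In WT against Notch3+/+ arteries 6 fell and 0 rose, and the 6 are 11.8% of those tested beside 4.05% of all tested genes called lower. They were Ccn1 (40.04 against 87.2 CPM, log2 fold change -1.12, edgeR adjusted p = 0.0211) and Ccn2 (-0.49, adjusted p = 0.0185), matrix proteins induced by stretch and YAP signalling, Btg2 (-0.41, adjusted p = 0.0403), an antiproliferative factor, and Klf6 (-0.30), Hbegf (-0.30) and Mcl1 (-0.21), a zinc finger factor, an EGF receptor ligand and a survival protein. None of the 6 passed without the choroid plexus-rich libraries.

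Among the 23 regulators of the early response on a further list, such as kinases and the CREB and serum response factors, 1 was called in 1 comparison. This was Mapk14, which encodes a p38 kinase and is named after its value was seen, in WT against Notch3+/+ arteries (log2 fold change -0.10, edgeR adjusted p = 0.0410). The share of 4.35% is close to the 4.05% of all tested genes called lower there. The mean of this list was correlated with Jun (r = 0.664, rho = 0.660, permutation p = 1e-04 and 0.00019, adjusted p = 0.0070 and 0.0133 over the 140 relations) and with Dusp1 (r = 0.628, rho = 0.596, permutation p = 0.00055 and 0.00092, adjusted p = 0.0257 and 0.0396), and r was 0.628 and 0.529 without the 2 mice farthest from the median of the list. Npas4 (r = 0.592, permutation adjusted p = 0.0414) and Fosb (r = 0.525, permutation adjusted p = 0.0414) passed by Pearson's r alone and Atf3 (rho = 0.588, permutation adjusted p = 0.0396) by Spearman's rho alone. Without the 2 farthest mice r was 0.452 for Npas4 and 0.369 for Fosb. These values are of the list mean, and the single regulators were less alike. Taken one by one, the 23 had a median r of 0.146 with the mean of the 10 members, from -0.478 to 0.508. Of these 16 were positive, and the median over all genes was 0.00885. The 10 heat shock genes, another rapid stress programme, had 0 calls in each comparison.

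The genes outside the 10 whose pattern was closest to theirs were searched among all 18545 others, by Pearson's r with the mean of the members over 32 mice with group means removed. Btg2 was first (r = 0.875), then Egr3 (0.774), Rbm4b (0.763), Zfp36 (0.743) and Ccn1 (0.738), followed by Midn, Slc25a25, Gm47483, Skil and Taf1d at 0.654 to 0.666. Egr3 encodes a relative of Egr1, and Zfp36 a protein that speeds the decay of short-lived mRNAs. Of these 10 genes 4, and 14 of the top 100, were on the wider early-response list. That list holds 51 of the 18545 ranked genes and was chosen with earlier results of these data known. Its 51 tested genes had a median r of 0.374 and 49 were positive, beside a median of 0.00885 over all genes.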

How the data were processed

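RNA of dissected brain arteries was sequenced from a stranded poly(A) library, 1 library per mouse, and the deposited table holds raw read counts per Ensembl gene, which the authors counted with HTSeq after alignment with STAR (tool names, with build mm39, from the submitters' processing notes). The strand setting of the counting is not given in the sources used here. Symbols were found for 52081 of 55357 identifiers.

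Counts were filtered with filterByExpr, scaled by TMM and tested with edgeR 4.0.16 (glmQLFit and glmQLFTest) in fits of the 2 groups compared, in place of the DESeq2 Wald test of the study, which was run as an alternative. The difference between the mutants was tested in a fit of all 4 groups. P-values were adjusted by Benjamini-Hochberg over all genes tested, and a gene was called below 0.05. Correlations used log2 CPM with a prior count of 2 after group means were removed. The fits were tested on simulated data.

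The members and the other gene lists were chosen with earlier results of these data known. Named genes were the 10 members, the 10 genes closest to their mean, and called genes of the early-response list, with marker lists given as sums. No 2 libraries of a group were near-identical: over the 112 pairs the chi-square per gene was 10.8 to 149. Counts limit the precision most for Fosb, whose lowest count was 33. Alternatives covered normalization, filter, tool, covariates and leaving out libraries. Leaving out the libraries rich in choroid plexus or pituitary RNA, with list sums above 1000 CPM, was chosen after seeing the data.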

Additional observations from a re-analysis of the deposited data

Results flagged for a closer look

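In each of the 40 combinations of gene and group the highest and the lowest mouse were compared with their nearest neighbour, as the gap divided by the range of the 8 mice. In 8 combinations that ratio was above Dixon's 95% critical value for 8 samples (0.526), where chance gives about 1 in 20, or 2 of 40, for values without skew. These ratios are of CPM, which is skewed. On log2 CPM, a scale tried after seeing the data, 4 combinations were above that value, 3 of them among the 8.

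TgNotch3R169C replicate 1 was above the critical value in 4 genes on the CPM scale and in 0 on the log2 scale, where the ratios were 0.385 to 0.461. Nr4a1 was at 156.3 CPM with the next mouse at 62.4 CPM (ratio 0.696), Fosb at 8.87 against 4.53 CPM (0.633), Fos at 41.9 against 22.5 CPM (0.578) and Egr1 at 128.8 against 76.0 CPM (0.572). Its choroid plexus and pituitary sums were 291.2 and 5.97 CPM, both within the range of its group, and its neuron sum was 689.5 CPM.

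Notch3+/+ replicate 5 was far above its group in 3 genes on the CPM scale, and in Atf3 (0.706) and Jun (0.603) but not Nr4a1 (0.44) on the log2 scale. Atf3 was at 16.2 CPM against 6.02 CPM in the next mouse (ratio 0.833), Nr4a1 at 238.8 against 91.2 CPM (0.696) and Jun at 121.7 against 90.0 CPM (0.662). This is the library with the pituitary sum of 8859 CPM, and the part of that tissue in the 3 values was not tested.

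Fos in Notch3-/- replicate 5 was the only low value among them, at 4.57 CPM with the next mouse at 10.1 CPM (ratio 0.527, and 0.664 on the log2 scale). All 10 genes were below the group mean in that mouse. On the log2 scale alone, Npas4 in Notch3-/- replicate 2 was also a low value (ratio 0.559).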

How the results depend on the processing

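No member was called in Notch3-/- against Notch3+/+ arteries, in TgNotch3R169C against WT arteries or in the difference between both under any of the alternatives run. In WT against Notch3+/+ arteries edgeR's test called 1 member and 6 of the other early-response genes. There DESeq2 called 3 members (Npas4, Dusp1 and Ier2), upper-quartile normalization and the neuron covariate called Npas4 and Dusp1, 2 each, and 0 were called with the smooth muscle covariate, with the choroid plexus covariate and without the choroid plexus-rich libraries, the pituitary-rich library kept or not. Leaving out 1 mouse gave 1 to 2. Npas4 was called in each of these but the fits with 0. Of the other early-response genes 0 were called in those fits and 3 to 6 without 1 mouse. In TgNotch3R169C against WT arteries DESeq2 called 1 of them, Fosl2, an AP-1 subunit (log2 fold change 0.46, DESeq2 adjusted p = 0.0433), and leaving out 1 mouse gave 0 to 1, again Fosl2 (0.53, edgeR adjusted p = 0.0305, without TgNotch3R169C replicate 8). In the difference between both mutants Ccn1 was called by DESeq2 (1.56, DESeq2 adjusted p = 0.0238) and without TgNotch3R169C replicate 3 (1.69, edgeR adjusted p = 0.0495). In WT against Notch3+/+ arteries DESeq2 called 9 of the early-response genes. Fosl2, Ccn1 and Ccn2 are named here after their values were seen.

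The cause of the changes was not tested. Leaving out the choroid plexus-rich libraries, a step chosen after seeing the data, keeps 4 of 8 WT mice. Some directions turned. Junb in Notch3-/- arteries was at 0.0297 with the smooth muscle covariate and between -0.145 and 0.0271 without 1 mouse. Atf3 there was at 0.02 without the choroid plexus-rich and pituitary-rich libraries and between -0.421 and 0.0254 without 1 mouse. Dusp1 in TgNotch3R169C arteries lay between -0.0594 and 0.244 without 1 mouse, and Fos in WT against Notch3+/+ arteries between -0.307 and 0.0789. The median r of the 45 pairs was 0.627 in WT mice alone and 0.471 to 0.555 without 1 mouse, and Fos with Atf3 was at -0.0357 in Notch3+/+ mice alone. Of 2043 alternative values 1988 kept their direction and side of the threshold or their size. A fold change counted as kept whatever its size if its sign and its call stayed. Nr4a1 in Notch3-/- arteries, which moved from -0.94 to -0.32 without 1 mouse, counted so. The share therefore does not measure how far fold changes moved.

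The labels give each group replicate numbers 1 to 8, but nothing says that a number marks a pair. Mice of the same number correlated at -0.137 to 0.337 at 3 months and -0.247 to 0.423 at 12 months, so they were not treated as pairs. With the replicate number as a block, 0 members were called in both comparisons with a mutant, Npas4 was still called in WT against Notch3+/+ arteries (log2 fold change -0.86, edgeR adjusted p = 0.00965), and 1 of the other early-response genes, Ccn2, was called there. Junb in TgNotch3R169C arteries had an edgeR adjusted p of 0.0949 under the block. The lowest count of any member in any library was 33, for Fosb.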
